A study of Mus musculus with 24 samples.

Results

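The measurement described here is a difference between responses: how the induction of ICN1 changed gene expression in VE sp and DP cells, set against how it changed expression in CD41 sp and DN cells. All 24 arrays of the series enter it, 12 from VE sp and DP and 12 from CD41 sp and DN. The cells were of the mouse embryonic stem cell line Ainv15 and had grown into embryoid bodies, aggregates in which such cells differentiate. They carried an ICN1 transgene, the intracellular part of the receptor Notch1, that doxycycline switches on. Induced cells (labelled ICN 3-5) had the transgene switched on from day 3 to day 5 and non-induced cells (ICN 0) did not, and both were dissociated and sorted on day 6. The 8 groups were induced and non-induced VE sp, DP, CD41 sp and DN cells, each with 3 replicates, and every group shared the same cell line and transgene.

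The labels do not spell out the 4 fraction names, do not say whether replicates were separate cultures, and do not say which cells of a fraction expressed the transgene. The p-values thus rest on the spread of these replicates, part of which may be technical. As the transgene is switched on by doxycycline, what the drug does and what ICN1 does cannot be told apart. Levels are log2 intensities after background correction and quantile normalization, given for replicates 1, 2 and 3 in that order. A response is the level in induced cells minus that in non-induced cells of the same fraction. The interaction is the mean response of VE sp and DP minus the mean response of CD41 sp and DN, in log2 units ± SE from limma with the replicate number as a block. A gene was called at a limma adjusted p (Benjamini-Hochberg over 9591 genes) under 0.05. The mean raw intensity of an array was 165 to 656, and 41.8% to 51.3% of the probes were detected.

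When a Notch receptor is activated, its intracellular domain is cut free, moves to the nucleus and joins the DNA-binding protein RBPJ to switch on genes such as those of the Hes and Hey repressors and Nrarp. In the early embryo this pathway takes part in arterial development and in the formation of blood from endothelium. VE-cadherin is the junction protein of endothelial cells, and CD41 is an integrin subunit of platelets that also marks early blood cells.

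The levels of the genes for both sort markers matched the fraction names in part. Cdh5, which encodes VE-cadherin, had levels of 10.04, 10.48 and 11.01 in induced and 9.87, 10.16 and 11.06 in non-induced VE sp cells. In DP cells it had 8.62, 8.72 and 9.76 when induced and 9.50, 9.39 and 10.02 when not. It was not detected on any of the 12 arrays of CD41 sp and DN. Itga2b, which encodes CD41, averaged 11.22 ± 0.38 in induced and 11.27 ± 0.21 in non-induced DP cells and 10.97 ± 0.21 and 11.00 ± 0.32 in induced and non-induced CD41 sp cells (SD, n = 3). It was also detected on every array of VE sp, at 9.37 ± 0.19 induced and 9.52 ± 0.41 non-induced, and of DN, at 7.88 ± 0.34 and 7.91 ± 0.14. The interaction of neither gene was called (-0.28 ± 0.21 for Cdh5, limma adjusted p = 0.651, and -0.07 ± 0.23 for Itga2b, limma adjusted p = 0.938). The other probe of Itga2b gave an interaction of -0.45. These are bulk samples, so a change in the share of cells that express a gene and a change in the RNA per cell cannot be told apart.

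Induction was followed by different responses in the 2 pairs of fractions for 85 of 9591 genes (0.886%). The response was higher in VE sp and DP for 52 genes (0.542% of those tested) and lower for 33 (0.344%). The response of VE sp and DP itself was called for 498 genes (5.19%), 340 up and 158 down, and that of CD41 sp and DN for 562 (5.86%), 278 up and 284 down. Of the 52 genes, 39 rose in VE sp and DP with no call in CD41 sp and DN, 10 fell in CD41 sp and DN with no call in VE sp and DP, 2 did both, and 1 (Timp2) rose in both. Of the 33 genes, 19 rose in CD41 sp and DN with no call in VE sp and DP, 10 fell in VE sp and DP with no call in CD41 sp and DN, and 4 rose in both. Clone or locus names made up 4 of the 52 and 6 of the 33 genes and are only counted. Sizes ran from 0.54 to 1.82 among the 52 genes and from 0.55 to 2.64 in the other direction. Just inside the threshold were Msx1, Mmp2 and Lmo2, with limma adjusted p of 0.0496 to 0.0499, and just outside it were Krtcap2, Gvin1 and Heyl, at 0.0502 to 0.0506.

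The number of calls leaned on every replicate and on the pairing. Without replicate 1, 2 or 3 the interaction was called for 3, 16 and 23 genes, and without the replicate block for 8, 4 in each direction. With median scaling in place of quantile normalization 0 genes were called higher and 4 lower, and the median interaction of all genes was 0.13 instead of 0.02. Of the named genes, the calls of Mcpt1 and Nrarp held in all 14 alternatives, that of Mcpt4 in 13, those of Npr3 and Oit3 in 12, and those of Col18a1, Aqp11, Prkcb and Reprimo in 11. At the other end, the call of Eltd1 held in 2, that of Fas in 3, those of Apoa1, Lmo2 and Pim3 in 4 and that of Vwf in 5.

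**Figure D1:**
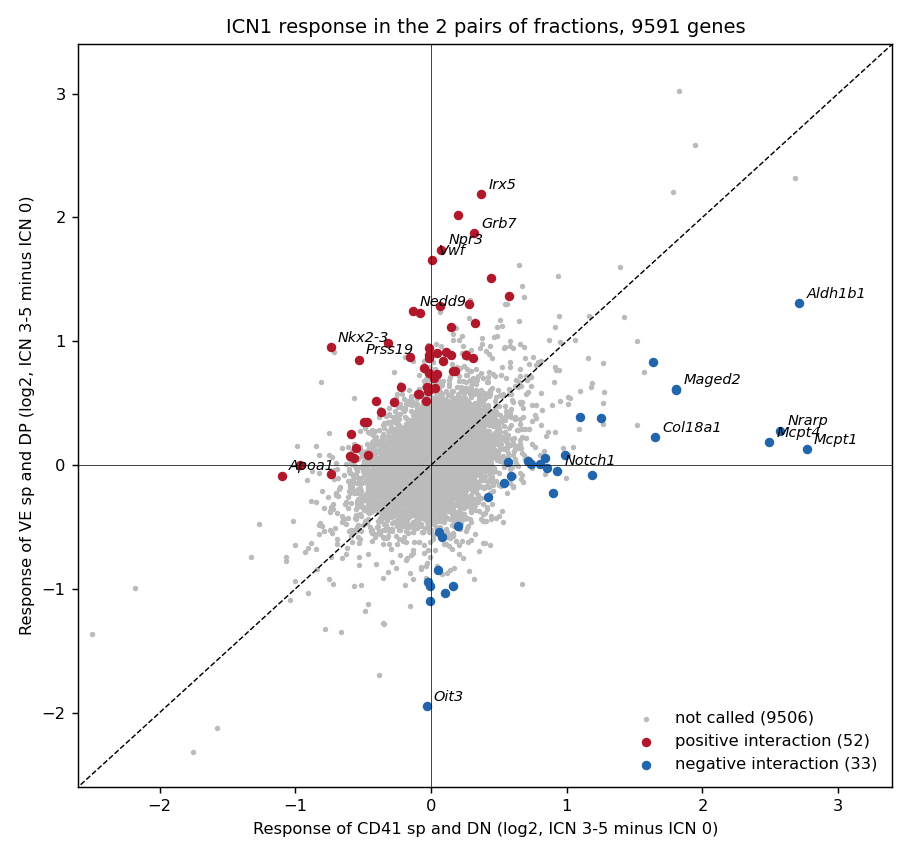
Each point is 1 of the 9591 genes tested, with the mean response of CD41 sp and DN on the x axis and that of VE sp and DP on the y axis (both log2, induced minus non-induced); the dashed line marks equal responses. The 52 genes with a positive interaction lie above the line and mostly near 0 on the x axis, and the 33 with a negative interaction lie below it, with Mcpt1, Nrarp and Mcpt4 at 2.77, 2.57 and 2.49 on the x axis and near 0 on the y axis.

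Among the genes with the lower response in VE sp and DP, Nrarp had one of the 3 largest differences. Nrarp is itself switched on by Notch and encodes a small ankyrin repeat protein that binds the Notch intracellular domain and dampens the signal. In VE sp cells its levels were 10.55, 10.24 and 10.39 when induced and 9.96, 9.54 and 10.32 when not. In DP cells they were 9.89, 9.33 and 9.58 induced and 9.52, 8.87 and 10.09 non-induced. In VE sp the lowest non-induced array lay well below the induced ones but the highest lay among them, and in DP the non-induced arrays lay on both sides of the induced ones. In CD41 sp cells the levels were 10.08, 9.29 and 9.88 induced against 7.82, 7.13 and 7.61 non-induced. In DN cells they were 10.92, 9.68 and 10.71 induced against 7.97, 7.20 and 7.37 non-induced. Here the groups did not overlap, and the induced cells of both fractions reached the range of VE sp and DP. The response of Nrarp was 0.28 ± 0.14 in VE sp and DP and 2.57 ± 0.14 in CD41 sp and DN, an interaction of -2.30 ± 0.20 (limma adjusted p = 1.37e-06) that was -2.13, -1.74 and -3.02 in replicates 1, 2 and 3. The difference in level between the 2 pairs of fractions, VE sp and DP minus CD41 sp and DN, was -0.10 in induced and 2.20 in non-induced cells.

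The mast cell proteases Mcpt1 and Mcpt4, chymases stored in mast cell granules, appeared after induction in CD41 sp and DN. Mcpt1 was detected on all 3 induced arrays of CD41 sp, at 8.06, 8.0 and 8.51, and on none of the non-induced ones. In DN it was detected on all 3 induced arrays, at 6.05, 6.36 and 6.76, and again on none of the non-induced ones. Against the lowest signal that still counted as detected, this was at least 8.86-fold higher in induced CD41 sp cells (limma adjusted p = 4.56e-12) and at least 2.73-fold higher in induced DN cells (7.02e-08). In VE sp and DP, Mcpt1 was detected on 1 of 12 arrays, an induced DP array at 4.89. Its interaction was -2.64 ± 0.15 (limma adjusted p = 1.18e-09), or -2.45 with undetected groups set to the lowest detected signal. Within CD41 sp and DN the response was larger in CD41 sp, by 1.57 (limma adjusted p = 0.00103). Mcpt4 was detected at 7.46, 6.26 and 7.92 in induced CD41 sp cells and at 6.56, 5.68 and 7.58 in induced DN cells, and on no other array. That was at least 4.51-fold (limma adjusted p = 2.02e-05) and at least 3.17-fold (7.4e-05) above the non-induced cells of the same fractions, and the interaction was -2.31 ± 0.28 (limma adjusted p = 0.000217). Of 16 measured members of a list of myeloid genes, 0 rose and 1 fell in VE sp and DP (Lyz, a lysozyme). Of all genes 3.54% rose and 1.65% fell there. In CD41 sp and DN 0 of the 16 were called, against 5.86% of all genes.

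Npr3 changed in the other pair of fractions. It encodes the receptor that clears natriuretic peptides from the surface of cells. In VE sp its levels were 8.98, 8.44 and 8.65 when induced, against 6.50, 5.69 and 5.37 when not. In DP they were 6.27, 4.69 and 5.07 induced and 4.94, 4.69 and 4.49 non-induced, with detection on 1 of 3 arrays of each. The induced and non-induced arrays of VE sp did not overlap, while those of DP did. In CD41 sp and DN it was detected on 2 of 12 arrays, both induced DN, at levels no higher than 5.08. The interaction was 1.67 ± 0.26 (limma adjusted p = 0.00277), with 1.81, 1.54 and 1.64 in the 3 replicates. The response of VE sp exceeded that of DP by 2.20 (limma adjusted p = 0.0122).

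The bases just before the start sites of Nrarp, Mcpt1 and Npr3 are shown because these genes had some of the most stable calls on either side of the contrast. They are RefSeq promoter sequences on build GRCm38.p6, 250 bases each, 5′ to 3′ on the strand of the gene, with matches to TGGGAA or its reverse complement TTCCCA, the core that RBPJ is known to bind, in capitals.
Nrarp (chr2:25180508-25180757, plus strand): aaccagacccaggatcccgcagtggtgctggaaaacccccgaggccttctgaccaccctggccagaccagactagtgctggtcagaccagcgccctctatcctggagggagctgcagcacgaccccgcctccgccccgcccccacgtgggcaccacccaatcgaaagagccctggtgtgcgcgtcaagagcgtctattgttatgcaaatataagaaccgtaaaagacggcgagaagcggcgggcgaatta
Mcpt1 (chr14:56017714-56017963, plus strand): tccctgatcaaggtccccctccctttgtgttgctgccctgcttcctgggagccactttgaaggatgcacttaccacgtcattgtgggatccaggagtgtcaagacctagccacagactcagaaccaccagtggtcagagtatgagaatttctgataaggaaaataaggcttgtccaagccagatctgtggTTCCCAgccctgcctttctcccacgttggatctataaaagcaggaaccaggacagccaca
Npr3 (chr15:11907372-11907621, minus strand): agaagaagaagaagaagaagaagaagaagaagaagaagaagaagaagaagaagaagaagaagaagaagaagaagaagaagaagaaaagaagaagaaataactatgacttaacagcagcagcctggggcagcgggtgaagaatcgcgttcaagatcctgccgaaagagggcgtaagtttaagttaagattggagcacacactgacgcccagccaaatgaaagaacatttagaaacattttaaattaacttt
These windows hold 0 matches for Nrarp, 1 for Mcpt1, and 0 for Npr3. In windows that reach from 250 bases before to 50 after the start, the motif was present on either strand in 33.3% of the called genes with the higher response (11 of 33 that had a sequence) and 30.4% of those with the lower response (7 of 23). It was present in 27.1% of the 7343 tested genes with a sequence and in 28.3% of all 27025 genes in the table, shares near those of the called genes. The genes shown and the motif were chosen after their values were seen.

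Other genes of the Notch pathway fell into those that responded alike by this measure and those that did not. Hey1, a repressor that Notch switches on, rose in both pairs, by 2.32 ± 0.22 in VE sp and DP and 2.68 ± 0.22 in CD41 sp and DN, with an interaction of -0.36 ± 0.31 (limma adjusted p = 0.692). In DN cells Hey1 had 11.41, 9.84 and 11.61 induced against 8.59, 7.39 and 8.58 non-induced, and in VE sp 12.86, 11.95 and 12.59 against 11.25, 10.23 and 10.61. Induced and non-induced arrays did not overlap in either fraction. Hes1, another such repressor, had a mean response of 1.04 ± 0.18 in CD41 sp and DN and of 0.14 ± 0.18 in VE sp and DP. Its interaction of -0.90 ± 0.26 missed the threshold (limma adjusted p = 0.125). By fraction Hes1 rose in CD41 sp (1.69 ± 0.26, limma adjusted p = 0.00143), while its response in DN was 0.39 ± 0.26 and not called (limma adjusted p = 0.417). Heyl rose in CD41 sp and DN (0.85 ± 0.10) and its interaction of -0.62 ± 0.15 fell just short (limma adjusted p = 0.0506, and 0.0401 with undetected groups at the detection bound). It was detected on 3 of 3 induced DN arrays, at 5.67, 5.89 and 6.28, on 1 induced VE sp array and on no other. Hey2 had an interaction of -0.41 ± 0.25, and its other probe gave 0.02 (limma adjusted p = 0.585 for the brighter probe). Hes5 did not pass the detection filter.

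Notch1 itself was called. In VE sp its levels were 10.03, 10.85 and 10.46 in induced and 9.69, 10.13 and 10.90 in non-induced cells, and in DP 8.55, 8.71 and 9.0 against 8.77, 9.16 and 9.21. In CD41 sp they were 5.83, 6.23 and 6.48 against 5.08, 5.09 and 6.04, and in DN 7.97, 7.78 and 8.30 against 6.53, 6.86 and 7.43. The induced and non-induced arrays overlapped in all fractions but DN, while within replicate numbers the response was above 0 in 3 of 3 replicates of CD41 sp (0.76, 1.14 and 0.44) and of DN and below 0 in 3 of 3 of DP (-0.22, -0.45 and -0.21). The response was -0.05 ± 0.14 in VE sp and DP and 0.93 ± 0.14 in CD41 sp and DN, an interaction of -0.98 ± 0.20 (limma adjusted p = 0.021). It was not tested whether this probe can detect transcripts of the transgene. The ligand Jag1 rose in both pairs (0.83 ± 0.14 and 0.79 ± 0.14), with an interaction of 0.04 ± 0.20 (limma adjusted p = 0.963). The interactions of the receptor Notch4 (-0.01 ± 0.25) and the ligand Dll4 (0.11 ± 0.17), which was detected only in VE sp, were not called (limma adjusted p = 0.991 and 0.843).

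Over the list of Notch target genes, 0 of 19 measured members had a called higher response in VE sp and DP and 2 had a lower one, Nrarp and Bhlhb2 (0.542% and 0.344% of all genes). Bhlhb2, now named Bhlhe40, is a repressor of the same protein class as the Hes and Hey proteins, and its interaction was -0.80 ± 0.17 (limma adjusted p = 0.0322), with the largest response in DN (1.25 ± 0.17). The median interaction of the list was -0.17, against 0.02 over all genes, and stayed below 0 with median scaling (-0.10) and with the authors' values (-0.12). In CD41 sp and DN, 6 members rose and 1 fell, and in VE sp and DP 2 rose and 2 fell, against 2.9% of all genes up and 2.96% down in the one pair and 3.54% up and 1.65% down in the other. Of the 8 measured receptors and ligands 1 was called (Notch1), and of the 17 measured pathway modifiers 0 were called. At an unadjusted limma p under 0.05, 1 modifier was higher and 0 lower.

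**Figure D2:**
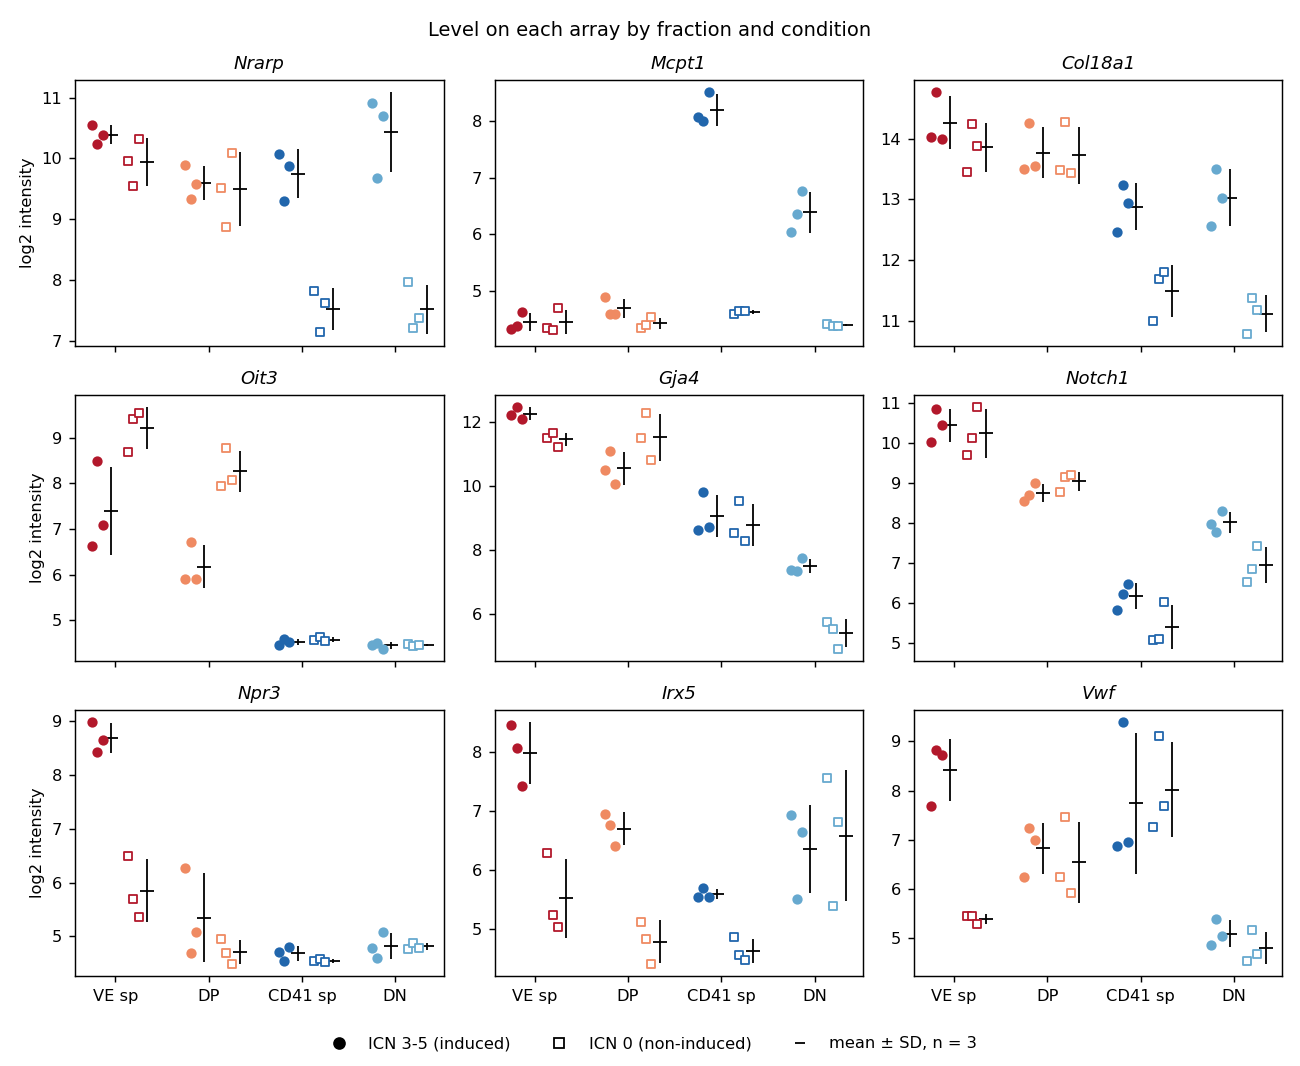
Log2 intensity of 9 genes (y axis) on each array of the 4 fractions (x axis); filled circles are induced and open squares non-induced arrays, and bars give the mean ± SD of 3 arrays. Nrarp and Mcpt1 separate the conditions in CD41 sp and DN, Npr3 and Vwf separate them in VE sp, and Oit3 averages 4.45 to 4.58 in the CD41 sp and DN groups.

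Genes of vessels stood on both sides of the contrast. Col18a1 encodes collagen XVIII of vessel basement membranes. Its levels in CD41 sp were 12.47, 13.24 and 12.94 induced against 11.00, 11.68 and 11.80 non-induced, and in DN 12.56, 13.50 and 13.03 against 10.79, 11.38 and 11.18. The 2 conditions did not overlap in either. In VE sp and DP, where it was at 13.43 or more on every array, its response was 0.22 ± 0.11, and its interaction was -1.43 ± 0.16 (limma adjusted p = 6.42e-05), with -1.27 from its other probe. Gja4, which encodes connexin 37 of arterial gap junctions, had unlike responses within each pair. In VE sp its levels were 12.24, 12.48 and 12.10 induced against 11.50, 11.65 and 11.24 non-induced, and in DP 10.50, 11.10 and 10.08 against 11.51, 12.28 and 10.80. In DN they were 7.38, 7.34 and 7.74 induced against 5.74, 5.53 and 4.90 non-induced. The conditions did not overlap in VE sp and DN and did in DP. Within replicate numbers the response in DP was below 0 each time (-1.01, -1.18 and -0.72). Its responses were 0.81 ± 0.26 in VE sp, -0.97 ± 0.26 in DP, 0.27 ± 0.26 in CD41 sp and 2.10 ± 0.26 in DN, so that the interaction of -1.27 ± 0.26 (limma adjusted p = 0.0251) averages over unlike fractions. The difference in response was called within both pairs, VE sp minus DP at 1.78 (limma adjusted p = 0.036) and CD41 sp minus DN at -1.82 (limma adjusted p = 0.0395).

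Vwf, the platelet-binding glycoprotein of endothelium and platelets, was higher in VE sp after induction. Its levels there were 7.69, 8.84 and 8.72 induced against 5.45, 5.46 and 5.28 non-induced. In DP they were 6.25, 7.24 and 7.01 against 6.25, 7.47 and 5.91, and in CD41 sp 6.88, 9.39 and 6.95 against 7.27, 9.12 and 7.68. The VE sp conditions were far apart, while those of DP and CD41 sp overlapped. The interaction of Vwf was 1.65 ± 0.36 (limma adjusted p = 0.0351), and its response in VE sp exceeded that in DP by 2.73 (limma adjusted p = 0.0226). Without the third induced DP array, the one with the lowest array weight, the call of Vwf was lost.

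Oit3, which encodes a protein with a zona pellucida domain, was the largest fall in VE sp and DP among the called genes. In VE sp it had 6.64, 8.48 and 7.09 induced against 8.69, 9.40 and 9.55 non-induced, and in DP 5.91, 6.72 and 5.91 against 7.94, 8.77 and 8.08. The conditions did not overlap in either fraction. All 12 arrays of CD41 sp and DN were without detection, so a fall could not be measured there, and its interaction was -1.91 ± 0.27 (limma adjusted p = 0.00121). The same holds for Eltd1, an adhesion receptor of endothelium now named Adgrl4, which fell in VE sp and DP by 0.85 on the log2 scale and had an interaction of -0.90 ± 0.21 (limma adjusted p = 0.0419, and 0.0939 with undetected groups at the bound). Lmo2, an adaptor of blood and vessel transcription factor complexes, fell in VE sp and DP by 0.55 and had an interaction of -0.60 ± 0.14 (limma adjusted p = 0.0499, and 0.0527 with the bound set for all genes, although Lmo2 itself was detected on every array). Beside these falls, the summed intensity of the 30 measured endothelial genes was 86678.4 to 104176.6 in induced and 71676.6 to 97391.4 in non-induced VE sp cells and 28067.6 to 32078.8 in induced and 40441.1 to 46376.7 in non-induced DP cells, and its part in them was not tested. Of those 30 genes only Vwf was called in the interaction (0.886% of all genes were), and the median was -0.13. In VE sp and DP 3 rose and 3 fell (3.54% and 1.65% of all genes). In CD41 sp and DN 2 rose and 2 fell (2.9% and 2.96% of all genes).

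Of 18 arterial genes measured, 2 were called, Gja4 and Notch1 (0.886% of all genes were), and the median of the list was 0.02. Blood and vessel regulators gave 1 call in 31 measured transcription factors, that of Lmo2. Etsrp71, now named Etv2, an early regulator of blood and vessel fate, fell in both pairs (-0.84 ± 0.16 in each) with an interaction of 0.00 ± 0.22 (limma adjusted p = 0.999). These means average over unlike fractions. Its response was called in DP (-1.34 ± 0.22, limma adjusted p = 0.00236) and CD41 sp (-1.06 ± 0.22, 0.0195). In VE sp (-0.33 ± 0.22, limma adjusted p = 0.502) and DN (-0.62 ± 0.22, 0.115) it was not. With median scaling the fall in VE sp and DP was not called (limma adjusted p = 0.0947). The interaction was -0.65 ± 0.33 for Runx1, 0.62 ± 0.27 for Gata2, 0.07 ± 0.23 for Gata1, 0.09 ± 0.18 for Tal1 and 0.10 ± 0.34 for Sox17, and none of the 5 was called (limma adjusted p = 0.405 to 0.941). The endothelial receptor gene Kdr did not pass the detection filter.

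Irx5 and Nkx2-3, both homeobox transcription factors, had the largest positive interactions among the named genes. Irx5, of the Iroquois family, had 8.45, 8.06 and 7.41 in induced against 6.28, 5.24 and 5.03 in non-induced VE sp cells, and 6.94, 6.76 and 6.40 against 5.12, 4.83 and 4.40 in DP. The conditions did not overlap in either fraction. In DN it had 6.93, 5.51 and 6.63 against 7.56, 5.38 and 6.80, and in CD41 sp it was detected on 3 of 3 induced and 0 of 3 non-induced arrays, at least 1.47-fold higher (limma adjusted p = 0.222, not called). Its interaction was 1.82 ± 0.34 (limma adjusted p = 0.0133). Nkx2-3, a homeobox factor of gut and spleen mesoderm, had an interaction of 1.69 ± 0.33 (limma adjusted p = 0.0175), with responses of 1.78 ± 0.33 in VE sp, 0.13 ± 0.33 in DP, -0.23 ± 0.33 in CD41 sp and -1.25 ± 0.33 in DN. In the other direction, Tcf15, a basic helix-loop-helix factor of somites, fell in VE sp and DP by 0.97 and had an interaction of -1.13 ± 0.24 (limma adjusted p = 0.0305). Of 16 measured Hox genes 0 were called by limma. At an unadjusted p under 0.05, 8 were lower and 1 higher (1031 of all 9591 genes passed that in either direction). The median was -0.42, with 14 of 16 below 0 also under median scaling and with the authors' values. Of the 16 genes, 10 were never detected in induced and 9 in non-induced CD41 sp cells, and 6 in each DP group. A fall of those genes could not be measured there.

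The responses of VE sp and DP were also compared with each other, first by size without regard to sign. By size the response was larger in VE sp than in DP for 43 of the 52 genes with the higher response and for 17 of the 33. The share over all genes was not counted, so whether this is particular to the 52 genes was not tested. The signed difference, the response of VE sp minus that of DP, was called positive for 12 of the 52 genes and negative for 1. Of all genes it was called for 69, or 0.719%, with 0.396% positive and 0.323% negative. None of the 69 calls between VE sp and DP, those of Npr3, Vwf, Gja4, Prkcb, Fas and Slc7a11 included, held with 1 contrast value per replicate number or without replicate 2, where limma called 0 genes (1387 and 1063 at an unadjusted p under 0.05). The 1 negative call among the 52 genes, likewise lost in those settings, was that of Pparg, a nuclear receptor of fat cells. It was at -1.08 (limma adjusted p = 0.0447). Prkcb, a protein kinase C, had 7.19, 7.37 and 7.33 in induced against 5.09, 4.99 and 4.53 in non-induced VE sp cells, and 5.31, 4.90 and 5.06 against 4.82, 4.78 and 5.17 in DP. The conditions stood apart in VE sp and overlapped in DP, and the response of VE sp exceeded that of DP by 2.26 (limma adjusted p = 0.000155). In DN it was detected on 3 of 3 induced and 0 of 3 non-induced arrays, at least 1.44-fold higher (limma adjusted p = 0.0213). Its interaction was 1.02 ± 0.17 (limma adjusted p = 0.00677). Aqp11, an aquaporin, had an interaction of 1.31 ± 0.16 (limma adjusted p = 0.000159) from responses of 2.08 ± 0.16 in VE sp, 0.37 ± 0.16 in DP, -0.27 ± 0.16 in CD41 sp and 0.11 ± 0.16 in DN. Grb7, an adaptor of receptor tyrosine kinases, had 1.56 ± 0.26 (limma adjusted p = 0.00604) and rose in VE sp and DP by 1.87 ± 0.18. Nedd9, a scaffold of focal adhesions, had 1.38 ± 0.22 (limma adjusted p = 0.00348), and its other probe gave 1.48. Mfap2, of elastic microfibrils, and Fxyd6, a regulator of the sodium pump, had interactions of 0.97 ± 0.18 and 1.07 ± 0.22 (limma adjusted p = 0.0133 and 0.0229).

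Cd53, a leukocyte tetraspanin, responded by like amounts in VE sp and DP (0.79 ± 0.14 and 0.93 ± 0.14). It had 5.99, 6.13 and 5.79 in induced against 5.03, 5.03 and 5.48 in non-induced VE sp cells, and 5.68, 5.78 and 5.64 against 4.89, 4.86 and 4.55 in DP. The conditions did not overlap in either, and in CD41 sp and DN Cd53 was detected on 1 of 12 arrays. Its interaction was 0.88 ± 0.14 (limma adjusted p = 0.00311). Reprimo, a p53-induced inhibitor of the cell cycle now named Rprm, and Eml1, a microtubule-binding protein, had interactions of 1.30 ± 0.20 and 1.03 ± 0.23 (limma adjusted p = 0.0032 and 0.0367).

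**Figure D3:**
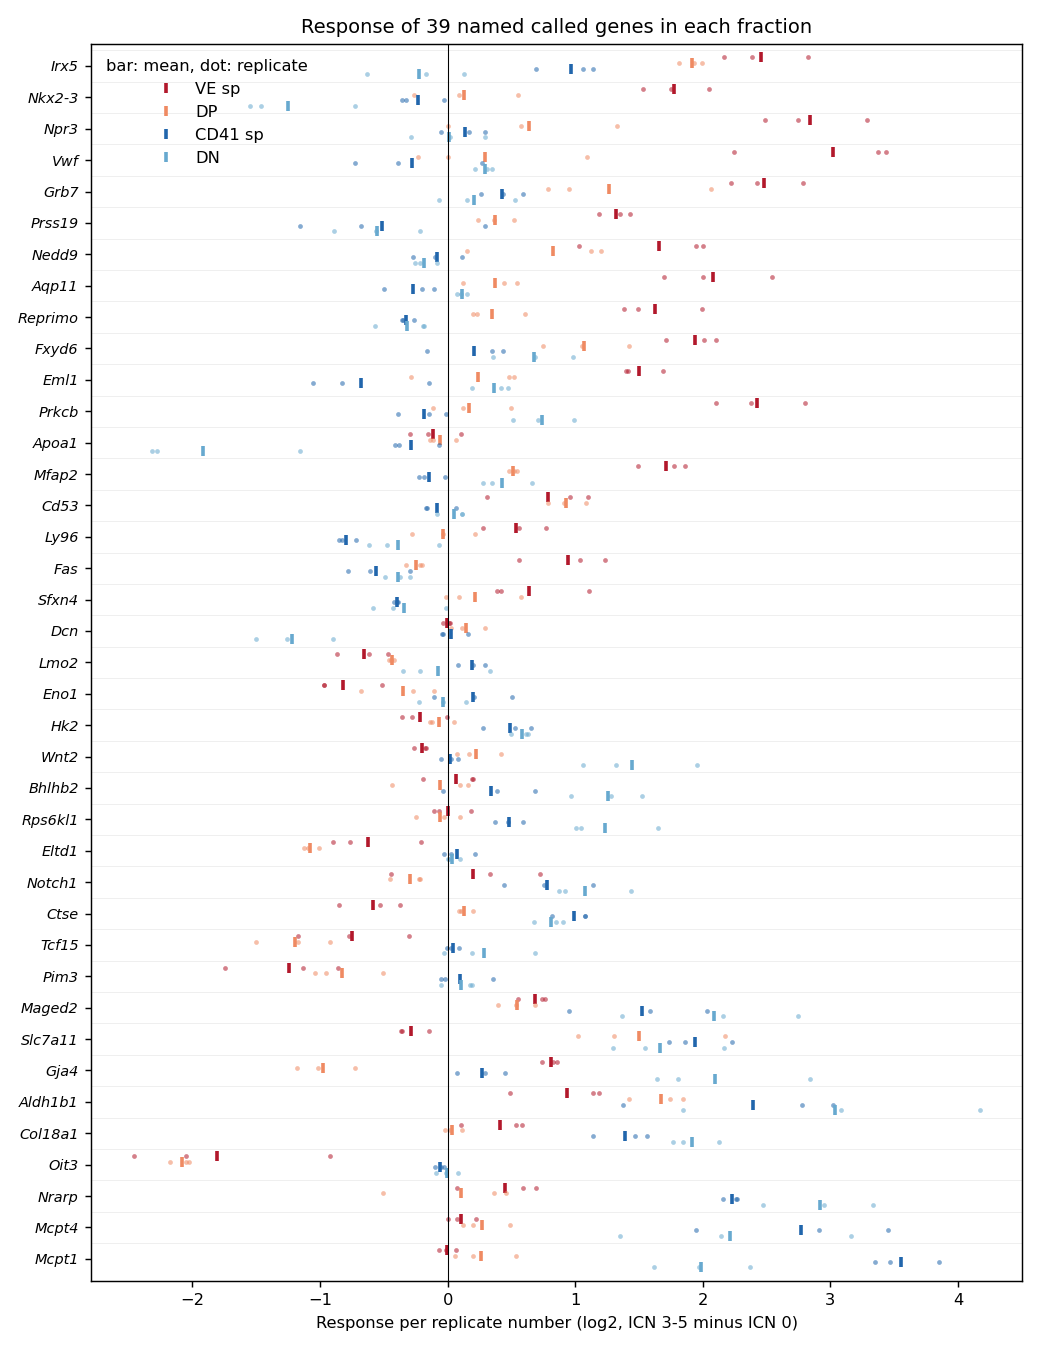
Response of 39 named called genes (rows, ordered by the interaction, the most positive at the top) in each fraction, in log2 units on the x axis; bars are means and dots the 3 replicates. At the top the red VE sp bars lie farthest to the right, and at the bottom the blue CD41 sp and DN bars do.

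Several genes with the higher response in VE sp and DP fell in CD41 sp and DN. Apoa1, the main protein of high-density lipoprotein and a product of visceral endoderm, had 4.97, 5.12 and 5.58 in induced against 7.29, 6.28 and 7.85 in non-induced DN cells, groups that did not overlap. It was detected on 1 of the other 18 arrays, and its interaction was 1.01 ± 0.23 (limma adjusted p = 0.0385, and 0.0586 at the bound). The summed intensity of the 14 measured endoderm genes was 1844.5 to 3788.1 in induced and 3600.3 to 10551.9 in non-induced DN cells, and its part in the result for Apoa1 was not tested. Of these 14 genes, 6 fell and 1 rose in CD41 sp and DN (2.96% and 2.9% of all genes), 0 were called in VE sp and DP, and the median interaction was 0.37. Dcn, a small proteoglycan of connective tissue, was detected on 3 of 3 non-induced and 1 of 3 induced DN arrays and on no other, with an interaction of 0.67 ± 0.12 (limma adjusted p = 0.0118). Ly96, a partner of Toll-like receptor signalling, fell in CD41 sp and DN by 0.59, rose in VE sp by 0.54 ± 0.14 (limma adjusted p = 0.0372) and had an interaction of 0.85 ± 0.14 (limma adjusted p = 0.0069). Fas, a death receptor and p53 target, fell in CD41 sp and DN by 0.47 and had an interaction of 0.82 ± 0.19 (limma adjusted p = 0.0419), but its other probe gave 0.18. By fraction the largest response of Fas was its rise in VE sp (0.94 ± 0.19, limma adjusted p = 0.00507), which exceeded that of DP by 1.19 (limma adjusted p = 0.045). Of the 14 measured p53 target and apoptosis genes 5 fell and 0 rose in VE sp and DP (1.65% and 3.54% of all genes), 6 fell and 1 rose in CD41 sp and DN (2.96% and 2.9%), and Fas was the only call in the interaction.

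Both directions were called in Prss19 and Sfxn4. Prss19, a serine protease now named Klk8, had 9.38, 9.46 and 10.01 in induced against 8.19, 8.11 and 8.58 in non-induced VE sp cells, and 7.0, 6.81 and 7.58 against 7.89, 7.02 and 8.14 in DN. The conditions did not overlap in VE sp and overlapped in DN. It rose in VE sp and DP (0.85 ± 0.15, limma adjusted p = 0.00126) and fell in CD41 sp and DN (-0.53 ± 0.15, limma adjusted p = 0.0358), an interaction of 1.38 ± 0.21 (limma adjusted p = 0.00275). Sfxn4, a mitochondrial protein, rose by 0.43 ± 0.10 and fell by 0.37 on the log2 scale, an interaction of 0.80 ± 0.15 (limma adjusted p = 0.0121), with 0.43 from its other probe. These directions were the same with median scaling and with the authors' values, but with median scaling neither response was called for Prss19 (limma adjusted p = 0.11 in VE sp and DP and 0.394 in CD41 sp and DN) or Sfxn4 (0.885 and 0.655).

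Enzymes and a transporter stood among the genes with the lower response. Aldh1b1, a mitochondrial aldehyde dehydrogenase, was undetected in non-induced VE sp, DP and CD41 sp cells and detected on every induced array, at least 1.51-fold, 2.55-fold and 3.66-fold higher there (limma adjusted p = 0.0987, 0.00808 and 0.000202, the first not called). In DN it was at 7.95, 6.75 and 8.58 induced against 4.87, 4.90 and 4.41 non-induced, so it rose in both pairs and by more in CD41 sp and DN (interaction -1.41 ± 0.31, limma adjusted p = 0.0326). Maged2, of the MAGE family, also rose in both, by 0.61 ± 0.16 in VE sp and DP and 1.81 ± 0.16 in CD41 sp and DN (interaction -1.19 ± 0.22, limma adjusted p = 0.0125). Slc7a11, the cystine transporter that is switched on under amino acid stress, rose in CD41 sp and DN by 1.80 ± 0.20. Its responses within the other pair were unlike, -0.29 ± 0.28 in VE sp and 1.5 ± 0.28 in DP (difference -1.79, limma adjusted p = 0.0441). In VE sp only 1 array, a non-induced one, detected Slc7a11, so its response there is not well measured. No non-induced DP array detected it, and it was at least 2.25-fold higher in induced DP cells (limma adjusted p = 0.00842). Its interaction was -1.20 ± 0.28 (limma adjusted p = 0.046), the only call among 23 integrated stress response genes, of which 21 were below 0, with a median of -0.39 (18 and -0.22 with median scaling).

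Hk2 and Eno1, a hexokinase and an enolase of glycolysis, had interactions of -0.68 ± 0.16 and -0.67 ± 0.14 (limma adjusted p = 0.045 and 0.0322). Hk2 rose in CD41 sp and DN by 0.53 ± 0.11, while Eno1 fell in VE sp and DP by 0.58. Of 21 hypoxia and glycolysis genes 18 were below 0 and the median was -0.20, and with median scaling 11 were below 0 and the median was -0.10. All 17 measured cholesterol synthesis genes were below 0 (14 with median scaling and 16 with the authors' values), with a median of -0.34 that was -0.13 with median scaling. None of these 17 was called by limma after adjustment, and 10 were lower and 0 higher at an unadjusted p under 0.05, which 1031 of all 9591 genes passed. Of the 17 genes 4 rose in CD41 sp and DN, where 2.9% of all genes rose. In VE sp and DP 0 of them were called, against 5.19% of all genes. For comparison, 4383 of all 9591 genes were below 0 (2683 with median scaling).

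The remaining named genes with the lower response were Pim3, Ctse, Rps6kl1 and Wnt2. The kinase Pim3 fell in VE sp and DP by 1.04 (interaction -1.14 ± 0.27, limma adjusted p = 0.0471), and the protease cathepsin E, encoded by Ctse, rose in CD41 sp and DN by 0.90 ± 0.14 (interaction -1.13 ± 0.19, limma adjusted p = 0.00677). Wnt2, a secreted Wnt ligand, had 6.04, 6.17 and 6.45 in induced against 4.97, 4.86 and 4.50 in non-induced DN cells, where 1 of 3 non-induced arrays detected it, and was detected on 1 of the other 18 arrays. Its response was larger in DN than in CD41 sp (difference -1.42, limma adjusted p = 0.00103), and its interaction was -0.72 ± 0.14 (limma adjusted p = 0.0133). Rps6kl1 had -0.88 ± 0.19 (limma adjusted p = 0.0301, and 0.0109 with undetected groups at the bound), with its largest response in DN (1.23 ± 0.19). No array of VE sp or DP detected Rps6kl1, so its level there is known only as a bound. Undetected groups touched 20 of the 52 and 13 of the 33 called genes, and with those groups at the detection bound 39 and 28 of them were still called.

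**Figure D4:**
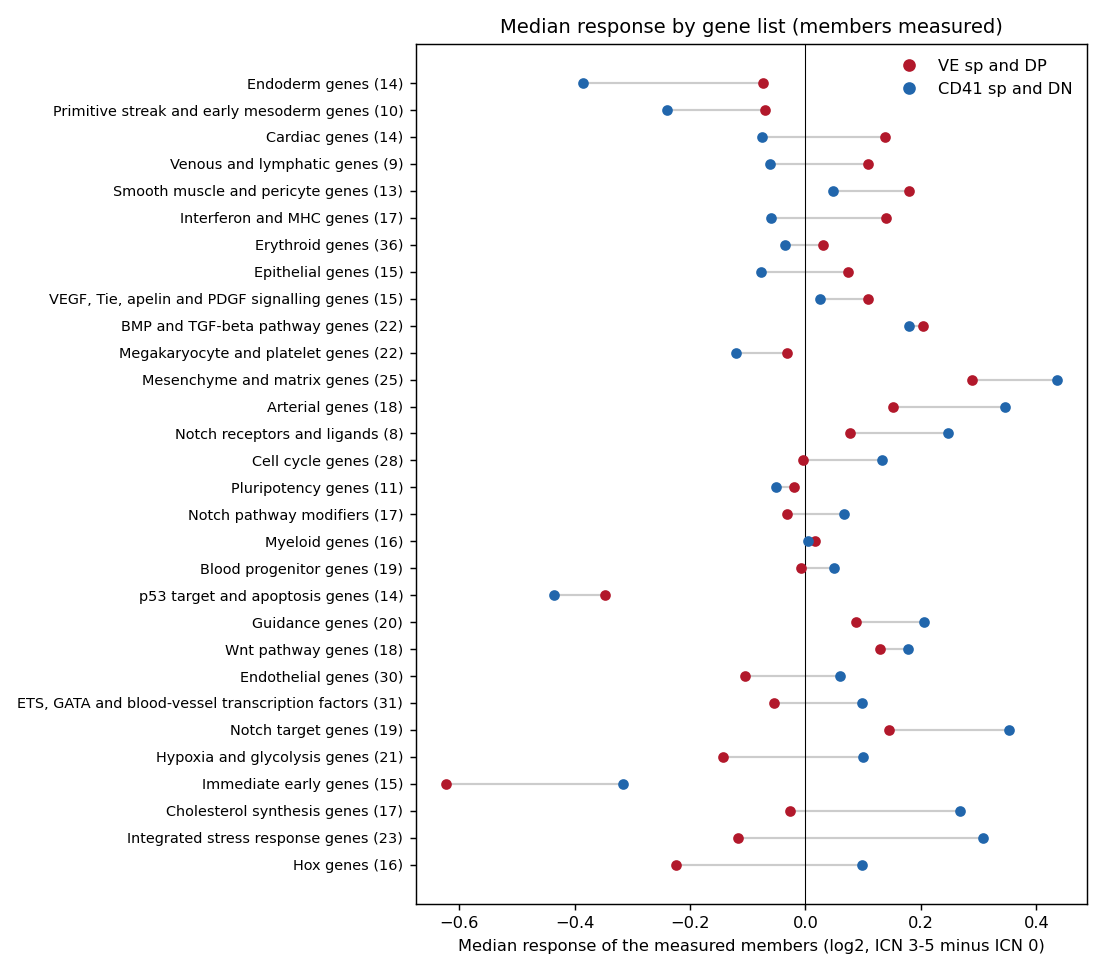
Median response of the measured members of 30 gene lists (rows, with the number measured, ordered by the median interaction), in VE sp and DP (red) and in CD41 sp and DN (blue), in log2 units on the x axis. Endoderm genes have the lowest blue median but for p53 targets, and the cholesterol, integrated stress response and Hox lists have red medians below 0 and blue medians above 0.

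The differences between VE sp and DP on the one side and CD41 sp and DN on the other were called for 4806 genes (50.1%, with 23.9% higher and 26.2% lower) in induced and 4775 (49.8%) in non-induced cells. Among the 33 genes with the lower response, the difference in level between the pairs was narrower after induction for 23 by value, and in non-induced cells 23 of them were higher in VE sp and DP (21.8% of all genes were). Among the 52 genes it was narrower for 14, and in non-induced cells 17 were higher and 16 lower in VE sp and DP (28% of all genes were lower). These differences share the arrays of the interaction and are given as a description. The response of CD41 sp minus DN was called for 28 genes (0.292%, with 0.0834% positive and 0.209% negative), among them 4 of the 52 and 4 of the 33. With the fractions split by CD41 instead, the response of CD41 sp and DP minus that of VE sp and DN was called for 76 genes (0.792%, with 0.229% positive and 0.563% negative), 11 of the 52 and 5 of the 33 among them.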

How the data were processed

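Messenger RNA of 24 samples (4 sorted fractions, 2 conditions, 3 replicates) was measured on Illumina arrays. The deposited tables, 1 for each replicate number, held linear probe intensity, without normalization per the file headers, and a detection p-value for each probe, likewise per the file headers. A table of intensity values processed by the authors, with unknown normalization, linear and not centred, was used as an alternative. Precision is limited by the number of arrays.

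Background was corrected with neqc (limma 3.58.1, R 4.3.3; background from the detection p-values, offset 16) and quantile-normalized to log2 intensity. The log2 levels were computed from the deposited intensities. A probe was kept if its detection p was under 0.05 in every replicate of some group (12894 of 25697), and the brightest probe stood for each symbol (9591 of 18120). Of these symbols 9275 matched a current one in a RefSeq table used for names. lmFit and eBayes were fitted to 8 group means with the replicate number as a block (14 residual degrees of freedom), and all contrasts come from this fit, adjusted over all genes. Arrays with the same number deviated together from their group means (r 0.293 to 0.777 over 84 pairs, against -0.626 to 0.0947 over 168 pairs of other numbers and groups), and each number came in 1 table. On simulated data for the interaction over 9591 genes with 200 changed, the fit recovered 0% of changes of 0.5, 83% of 1 and 100% of 2 on the log2 scale, with 0, 6 and 17 false calls.

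Where no array of a group detected a gene, its level there is known only as a bound. Folds against such a group are written "at least" and divide the brighter mean by a floor: on each array the lowest signal of any detected probe, or the gene's own signal if that was higher, averaged over the replicates. The contrast, the 30 gene lists and the genes always named were chosen with earlier results of these data known. Named are 19 such genes (of which Hes5 and Kdr were not measured), the 15 largest called changes in each direction with 1 sign in all replicates, up to 4 called members of a list, up to 8 called genes with opposite calls in the 2 pairs, and the 6 smallest p-values among genes called in each pair only. Lists without a call were to be shown by their 2 brightest members, and are given as counts and medians instead, a choice made after seeing the values. Timp2, Pparg, Lyz, Msx1, Mmp2, Krtcap2 and Gvin1 were named after their values were seen. Symbols are those of the array design. Values of 1 called gene that the naming rule takes are not reported here.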

Additional observations from a re-analysis of the deposited data

Results flagged for a closer look

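The interaction of ICN1 induction with the pair of fractions was called for 85 genes, which means that the response of VE sp and DP differed from that of CD41 sp and DN by limma's own test of the difference. The interaction with the CD41 split, CD41 sp and DP minus VE sp and DN, was called for 76. Prss19 (interaction 1.38) and Sfxn4 (0.80) drew attention because the induced cells moved in opposite directions in the 2 pairs, up in VE sp and DP and down in CD41 sp and DN, with both responses and their difference called. Prss19 was lower in 2 of 3 replicates of CD41 sp after induction and in 3 of 3 of DN, and higher in 3 of 3 of VE sp and of DP. Sfxn4 was lower in 3 of 3 replicates of CD41 sp and of DN, and higher in 3 of 3 of VE sp and 2 of 3 of DP.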

How the results depend on the processing

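The number of calls varied with the setting, and 14 alternatives were run on each of 8 counts. Without the replicate block, the VE-cadherin interaction was called for 8 genes instead of 85, the responses for 146 (VE sp and DP) and 94 (CD41 sp and DN), VE sp minus DP for 2, CD41 sp minus DN for 5, the CD41 interaction for 4, and the VE-cadherin difference for 2911 genes in induced and 2894 in non-induced cells. Median scaling gave 4, 73, 59, 1, 1, 5, 2215 and 2511 for the same 8 counts. Fitting 1 contrast value per replicate number gave 23 for the interaction, 145 and 1369 for the responses, 0 for VE sp minus DP (limma, with 1387 at an unadjusted p under 0.05), 141 for CD41 sp minus DN and 443 for the CD41 interaction. Array weights gave 175, 782, 1401, 147, 99 and 289 for these 6. Offset 50 gave 108 for VE sp minus DP, 15 for CD41 sp minus DN and 115 for the CD41 interaction. The authors' values gave 10 for CD41 sp minus DN and 121 for the CD41 interaction, and no filter gave 50 for that contrast. The cause of these differences was not tested.

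Leaving out replicate 1, 2 or 3 leaves fewer samples, and gave 3, 16 and 23 genes for the VE-cadherin interaction, and 72 without the third induced DP array and 68 without the third non-induced VE sp array, both chosen after seeing the data. Over these 5 omissions the counts ran from 3 to 72 for the interaction, 92 to 535 and 58 to 829 for the responses of VE sp and DP and of CD41 sp and DN, 0 to 72 for VE sp minus DP, 1 to 36 for CD41 sp minus DN and 1 to 124 for the CD41 interaction. The 0 came without replicate 2 (limma, 1063 at an unadjusted p under 0.05). A detection floor, also chosen after seeing the data, gave 75 for the interaction. Of 40 called named genes, 17 kept the call with 1 contrast value per replicate number and 36 with the authors' values. Without the block 8 kept it (Cd53, Mcpt1, Mcpt4, Nedd9, Npr3, Nrarp, Oit3 and Prkcb). With median scaling 4 kept it (Mcpt1, Mcpt4, Nrarp and Oit3), and without replicate 1 it held for 3 (Mcpt1, Npr3 and Nrarp). None of the 40 changed direction in any of the 14, but for some settings this was fixed in advance. Every called gene had 1 sign in all 3 replicates (52 of 52 and 33 of 33), so leaving out a replicate could not reverse it. The fits without the block and with 1 contrast value per replicate number keep the same estimate.

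Among named genes that were not called the sign of the interaction changed as follows. Over the 5 omissions it ran from -0.030 (without the non-induced VE sp array 3) to 0.25 for Dll4, from -0.078 to 0.075 for Etsrp71, from -0.035 to 0.16 for Gata1, from -0.18 to 0.074 for Itga2b, from -0.20 to 0.32 for Jag1, from -0.18 to 0.18 for Notch4, from -0.13 to 0.27 for Sox17 and from -0.022 to 0.16 for Tal1. Etsrp71 was -0.025 with the authors' values, -0.030 with offset 50 and -0.012 with array weights. Gata1 was -0.050 with the mean of probes and -0.087 with array weights, Tal1 was -0.044 with array weights, and Itga2b was 0.10 with median scaling. Notch4 was 0.040 with median scaling, 0.11 with the authors' values, 0.088 with offset 50, 0.11 with the mean of probes and 0.22 with array weights. Levels of undetected genes are bounds, which limits what these arrays show for dim genes.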

Other observations

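Some lists had called members in both pairs of fractions. Of 25 measured mesenchyme and matrix genes, 7 rose and 0 fell in VE sp and DP (3.54% and 1.65% of all genes), and 10 rose and 2 fell in CD41 sp and DN (2.9% and 2.96%), with a median interaction of 0.02 and 1 member, Dcn, called in the interaction. Of these, Col5a1 and Col6a1, which encode collagen chains, Fbln2 and Fbn1, which encode other matrix proteins, and the transcription factor gene Twist2 rose in both pairs. Of 22 measured BMP and TGF-beta pathway genes 4 rose in each pair and 1, the ligand gene Bmp4, fell in CD41 sp and DN. Smad6, an inhibitor of BMP signalling, and the receptor gene Tgfbr1 rose in both. None of these 22 was called by limma in the interaction, and 1 was higher and 0 lower at an unadjusted p under 0.05.

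Of 14 measured cardiac genes 13 had an interaction above 0, and with the authors' values 3 were below 0. Of all 9591 genes 4383 were below 0 (4423 with the authors' values). At an unadjusted limma p under 0.05, 4 cardiac genes were higher and 0 lower, and 0 were called after adjustment. That unadjusted cut was passed by 1031 of all genes. In each group of VE sp, DP and CD41 sp, 4 to 7 of the 14 were never detected. The median interaction of the cardiac genes was 0.26, and 0.14 with the authors' values. Their summed intensity was 1526.1 to 2062.3 in induced and 1332.3 to 1456.9 in non-induced VE sp cells and 1119.8 to 4131.5 and 1417.3 to 5132.6 in induced and non-induced DN cells. Immediate early genes had a median response of -0.62 in VE sp and DP and -0.32 in CD41 sp and DN, and Fos, in VE sp and DP, was the only call in either pair.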
